A study of Mus musculus with 24 samples.

Results

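The genes described here are Ifng and 5 receptor chains, Ifngr1, Ifngr2, Ifnar1, Ifnar2 and Il21r, in the immune and tumor cells of mouse Panc02 tumors. They were taken by symbol, as 6 of the 32285 genes in the deposited count matrix, by a rule that reads names alone, though the names were picked with earlier results of these data known. Panc02, a mouse pancreatic adenocarcinoma line, was implanted subcutaneously in male wild-type C57BL/6 mice aged 6 to 7 weeks, and tumors were harvested on day 38. Mice received PancVAX, a neoantigen peptide vaccine (on days 12 and 19, with 50 ug in the labels, an amount that the methods give per peptide), anti-PD-1 (100 ug, repeatedly from day 12) and anti-CTLA-4 (100 ug on days 15 and 22) in every combination, or isotype control antibody, which gave 8 treatments: Isotype Control, Anti-PD-1, Anti-CTLA-4, Anti-PD-1 + Anti-CTLA-4, PancVAX, PancVAX + Anti-PD-1, PancVAX + Anti-CTLA-4, or all 3 agents as PancVAX + Anti-PD-1 + Anti-CTLA-4. Tumors were pooled within a treatment, and each treatment had 1 library of whole dissociated tumor and 1 of a Percoll fraction, 16 RNA libraries in all. The study describes the Percoll fraction as enriched for immune cells. The study's methods list isotype antibodies for the vaccine-alone group as well, and PBS for mice without vaccine. The vaccine peptides were given with AddaVax and a STING agonist, so that peptide and adjuvant cannot be told apart. It is not stated whether the same mice gave both libraries of a treatment, so p-values measure the spread between pools and libraries, not between mice.

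IFN-gamma, the product of Ifng, is made mainly by activated T cells and NK cells, and binds a receptor of 2 chains, of which IFNGR1 holds most of the ligand-binding surface and IFNGR2 is needed for signalling. Signalling through JAK1 and JAK2 then induces genes of antigen presentation, chemokines such as Cxcl9 and Cxcl10, guanylate-binding proteins and the inhibitor Socs1. Type I interferons use IFNAR1 and IFNAR2 with TYK2 and JAK1, and IL-21, a cytokine of helper T cells, uses IL21R with the common gamma chain and JAK1 and JAK3.

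The 6 genes lie on 3 chromosomes of GRCm38.p6, all on the plus strand. Ifng spans chr10:118441046-118445894 and Ifngr1 chr10:19591949-19610229. Ifnar2 (chr16:91372783-91405589), Ifnar1 (chr16:91485032-91510523) and Ifngr2 (chr16:91547059-91564007) form a cluster on chromosome 16, and Il21r spans chr7:125603252-125634397. The 250 bases before the RefSeq start are printed for the ligand, for the signalling chain of its receptor, and for both chains that were higher with PancVAX in CD8 T cells. Capitals mark matches, on either strand, to the TATA box (letters TATAAA), the GC box (letters GGGCGG), the STAT site of the GAS type (letters TTCNNNGAA) or a pair of GAAA runs set 2 bases apart, and matches may overlap.
Ifng, chr10:118440796-118441045: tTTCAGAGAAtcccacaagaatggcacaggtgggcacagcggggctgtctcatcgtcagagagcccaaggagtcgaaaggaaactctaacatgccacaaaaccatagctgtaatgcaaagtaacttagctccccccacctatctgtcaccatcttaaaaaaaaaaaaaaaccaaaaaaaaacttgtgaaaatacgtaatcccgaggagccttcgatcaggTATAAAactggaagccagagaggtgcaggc
Ifngr1, chr10:19591699-19591948: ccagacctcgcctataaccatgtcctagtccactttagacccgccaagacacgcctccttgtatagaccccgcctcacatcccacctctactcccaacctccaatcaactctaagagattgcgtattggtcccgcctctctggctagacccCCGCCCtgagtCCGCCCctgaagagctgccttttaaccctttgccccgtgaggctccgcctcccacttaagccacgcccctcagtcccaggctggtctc
Ifngr2, chr16:91546809-91547058: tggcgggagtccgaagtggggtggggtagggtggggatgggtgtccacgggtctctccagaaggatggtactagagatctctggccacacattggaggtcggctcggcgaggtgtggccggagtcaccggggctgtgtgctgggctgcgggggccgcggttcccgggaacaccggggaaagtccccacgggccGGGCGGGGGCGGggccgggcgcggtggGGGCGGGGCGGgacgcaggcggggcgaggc
Ifnar2, chr16:91372533-91372782: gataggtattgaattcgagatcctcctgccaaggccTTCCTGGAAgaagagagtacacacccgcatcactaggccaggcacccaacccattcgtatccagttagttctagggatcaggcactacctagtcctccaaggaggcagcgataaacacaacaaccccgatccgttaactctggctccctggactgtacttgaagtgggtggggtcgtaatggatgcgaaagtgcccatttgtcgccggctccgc
The Ifng window held TATAAA 30 bases before the start, a motif found in 12.4% of 32851 RefSeq promoter windows of this length, and TTCNNNGAA 249 bases before it (7.02% of windows). GGGCGG, found in 32.7% of windows, matched 2 times in Ifngr1 and 4 times in Ifngr2. Ifnar2 held TTCNNNGAA 214 bases before the start and no GGGCGG, and the pair of GAAA runs (2.98% of windows) matched none of the 4. These are matches of letters and say nothing of a factor's binding.

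Of 144994 barcodes, 57355 passed the study's limits on genes, UMIs and mitochondrial share, and libraries held 77132398 to 176233225 UMIs and 1793 to 7413 passing cells. Cells were placed in gates, groups set by UMIs of lineage marker genes that include no gene described here. The gates took 39316 cells, 16017 stayed ungated (27.9%), 1821 were T cells of no subset gate, and 201 had a single C1q gene. Genes that no gate used were read as a check of the gate names. Lck was at 341 to 533 CPM (UMIs of the gene per 1e6 UMIs of the gate) in the T cell and NK gates. In the other gates tested it was at 26.9 CPM or less. Lyz2 reached 16450 CPM in C1q- monocytes and S100a9 24580 CPM in neutrophils. Ptprc, the pan-leukocyte gene, was at 6.05 to 16.2 CPM in stromal, endothelial and epithelial tumor cells. Some other check genes did not set their gate apart. H2-DMb2, read for dendritic cells, was at 176.8 CPM there and 879.5 CPM in B cells. H2-Aa was at 8613 CPM in dendritic cells and 8794 CPM in C1q+ macrophages. Sparc, read for stromal cells, was at 2533 CPM there and 6752 CPM in endothelial cells. Nkg7 was at 3431 CPM in NK cells and 3190 CPM in CD8 T cells. The Percoll library of PancVAX + Anti-PD-1 stood apart, with 46.4% of its passing cells gated against 62.4% to 79.3% in the other 15, and 2057 of 55241 barcode sequences occurred in more than 1 library. Levels below are CPM in a gate, over the 8 pools in which both libraries of a treatment were summed. Counts are from the 5′ end and have not been put on a scale that allows comparison between genes, so each gene is compared only with itself.

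Ifng was high in CD8 T, CD4 Foxp3- T and NK cells and near absent from every myeloid, B, tumor and stromal gate. Its lowest, median and highest level over 8 pools were 122.5, 206.4 and 244.3 CPM in CD8 T cells, 105.5, 150.1 and 413.9 CPM in CD4 Foxp3- T cells and 91.3, 133.5 and 207.9 CPM in NK cells. The 3 gates overlapped, and neither neighbouring pair differed beyond its spread (exact paired sign-flip permutation test, 2-sided, adjusted p = 0.81 and 0.417). With whole-tumor libraries alone, or with no upper limits on genes and UMIs per cell, CD4 Foxp3- T cells came first.

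Gamma-delta T cells followed at a median of 44.6 CPM, below NK cells in 8 of 8 pools (mean log2 difference 1.87 ± 1.30, SD, n = 8; exact sign-flip permutation p = 0.0078, the smallest 8 pools allow, adjusted p = 0.0554 over 78 neighbouring pairs). Foxp3+ T cells were at a median of 4.32 CPM. No Ifng UMI was counted in dendritic cells, plasmacytoid dendritic cells or C1q- monocytes, which allows up to 1.19, 4.66 and 1.93 CPM.

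Ifngr1, the ligand-binding chain, had its highest levels in NK and T cells, Foxp3+ T cells included. NK cells ranged from 1015 to 1751 CPM with a median of 1252, Foxp3+ T cells from 850 to 1466 with a median of 1222, and CD4 Foxp3- T cells from 671 to 1190 with a median of 1070. Gamma-delta T cells (930 CPM) and CD8 T cells (644 CPM) came next, then C1q- monocytes (389 CPM) and C1q+ macrophages (176 CPM), and epithelial tumor cells came last at 27.9 CPM, 44.9-fold below NK cells. In 5 of the 13 neighbouring pairs every pool went the same way, among them CD8 T cells above C1q- monocytes (mean log2 difference 0.85 ± 0.38) and C1q- monocytes above C1q+ macrophages (1.09 ± 0.26), each with the same exact sign-flip permutation p of 0.0078 and adjusted p of 0.0554.

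Ifngr2, the signalling chain of the same receptor, had a different order. C1q+ macrophages ranged from 107 to 126.5 CPM with a median of 113, followed by C1q- monocytes (100.0 CPM), plasmacytoid dendritic cells (91.0 CPM) and dendritic cells (74.8 CPM). CD8 T cells were at 5.93 to 10.1 CPM with a median of 9.51, the lowest but for NK cells, in which only 3 Ifngr2 UMIs were counted in 1209691. Within the CD8 gate, cells with a Pdcd1 UMI, the gene of PD-1, held less Ifngr2 than cells without one in 8 of 8 pools, at medians of 4.12 and 14.6 CPM. Pdcd1 detection moves with depth, and the median cell had 4570 UMIs in the former and 3462 in the latter; the part of depth was not tested.

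Ifnar1 and Ifnar2, the chains of the type I interferon receptor, were both highest in plasmacytoid dendritic cells, a main source of type I interferon. That gate held 10 to 21 cells a pool, too few to be ranked within a single preparation. Ifnar1 there ranged from 207 to 387 CPM with a median of 293, above Foxp3+ T cells (121 CPM) in 8 of 8 pools (mean log2 difference 1.29 ± 0.59; exact sign-flip permutation p = 0.0078, adjusted p = 0.0554). Ifnar2 ranged from 424 to 744 CPM with a median of 541, above C1q- monocytes (219 CPM) in 8 of 8 pools (1.23 ± 0.22, same p). From Foxp3+ T cells to dendritic cells Ifnar1 spanned only 121 to 46.0 CPM, while Ifnar2 was at 209 CPM in C1q+ macrophages, 199 CPM in endothelial cells, 150 CPM in neutrophils and 58.8 CPM in CD8 T cells. Epithelial tumor cells were lowest in both, 19.8-fold and 15.7-fold below plasmacytoid dendritic cells.

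Il21r was highest in Foxp3+ T cells (81.7 to 316 CPM, median 206), CD4 Foxp3- T cells (142 to 280 CPM, median 199) and CD8 T cells (152 to 257 CPM, median 177), with B cells at 152 CPM and dendritic cells at 133 CPM. No neighbouring pair among these 5 gates differed beyond its spread after adjustment, the smallest adjusted p being 0.116 in the exact sign-flip permutation test. C1q+ macrophages (37.9 CPM) exceeded neutrophils (5.29 CPM) in 8 of 8 pools, and stromal, endothelial and epithelial tumor cells held 11, 1 and 18 Il21r UMIs, with medians of 0, 0 and 0.34 CPM. Over all 6 genes, 0 of 78 neighbouring pairs passed adjustment, although 23 had an unadjusted exact permutation p below the threshold of 0.05 and 11 went the same way in all 8 pools. Those 11 had the smallest p that 8 pools allow, which adjusted to 0.0554. The outcome therefore does not show that neighbouring gates were alike.

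**Figure D1:**
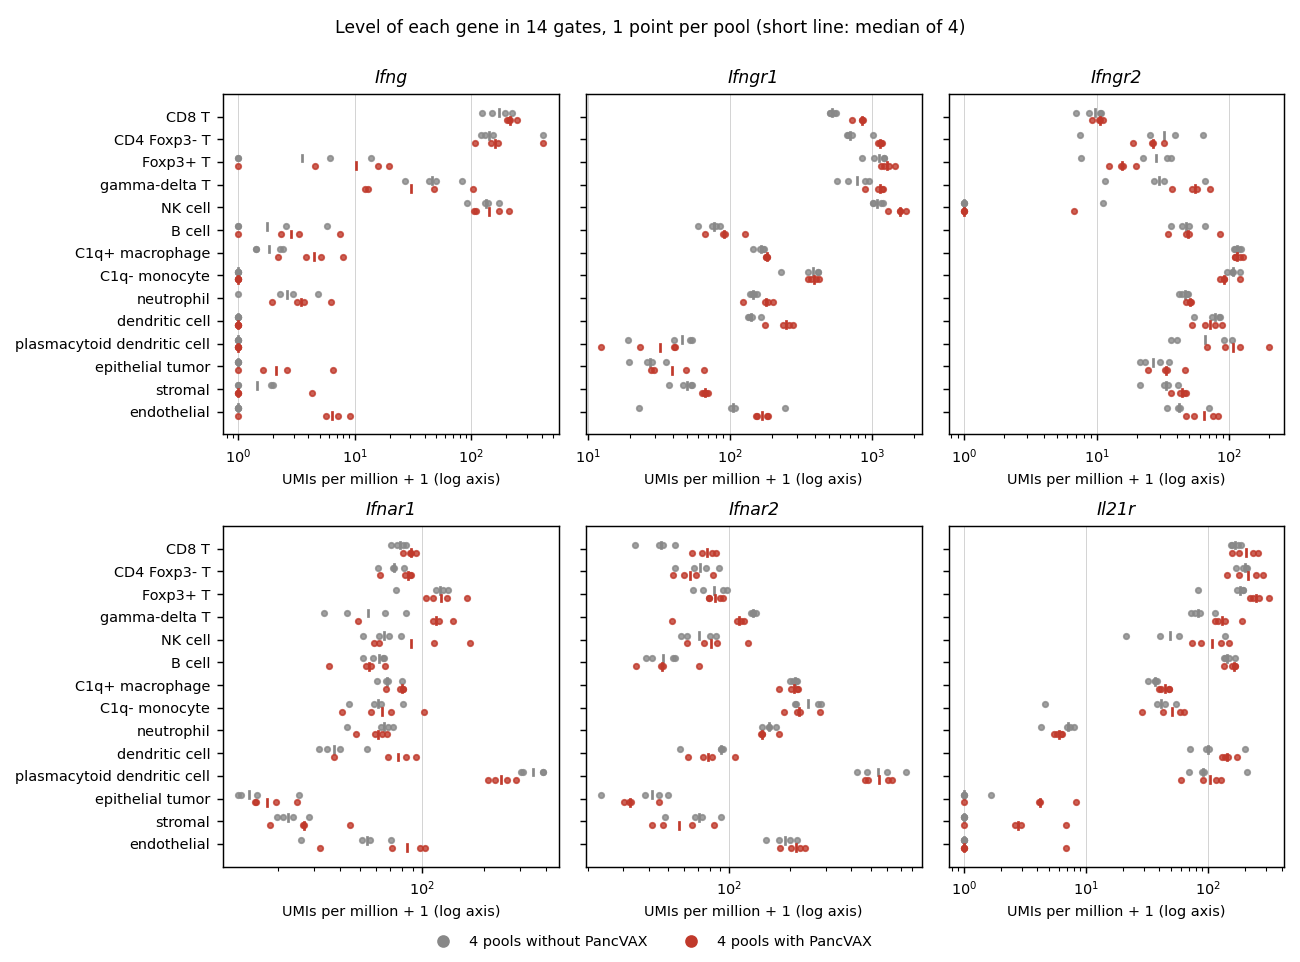
Level of each gene in 14 gates, in CPM plus 1 on a log axis, with 1 point per pool, coloured by PancVAX, and a short line at the median of 4 pools. Ifng separates the CD8 T, CD4 Foxp3- T and NK gates (medians 133.5 to 206.4 CPM) from the myeloid gates (0 to 2.08 CPM), while Ifngr2 is lowest in CD8 T and NK cells.

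Weighed by cell numbers, CD8 T cells held most Ifng UMIs, and C1q+ macrophages held more Ifngr2 and Ifnar2 UMIs than any other gate. Of 11209 Ifng UMIs in passing cells, 74.1% lay in CD8 T cells, 88.9% in all T cell and NK gates, 9.24% in ungated cells and 1.55% in myeloid gates. Of 68113 Ifngr1 UMIs, 42.8% lay in CD8 T cells and 16.1% in C1q+ macrophages, whereas of 12282 Ifngr2 UMIs 60.1% lay in C1q+ macrophages and 2.96% in CD8 T cells. C1q+ macrophages likewise held 52.8% of 24888 Ifnar2 UMIs, at a mean of 47.6% (38.5% to 51.3%) over pools with PancVAX and 59.3% (57.4% to 62.6%) over pools without (exact permutation p = 0.0286, adjusted p = 0.109). The macrophages themselves were 22.3% of passing cells with and 28.45% without PancVAX (exact permutation p = 0.0286, adjusted p = 0.109), they held 13.3% against 22.6% of Ifngr1 and 55.8% against 65.5% of Ifngr2 UMIs, and Ifnar2 within the gate was at a mean of 202 and 208 CPM. C1q+ macrophages held 35.4% of 13036 Ifnar1 UMIs, and CD8 T cells held 50.9% of 15766 Il21r UMIs. The CD8 share of Ifng UMIs was 71.6% ± 4.7 (SD, n = 4) in pools with PancVAX and 80.0% ± 2.6 (n = 4) in pools without, a difference of -8.43 percentage points in groups that did not overlap (65.4% to 76.4% and 76.5% to 82.8%; exact permutation p = 0.0286, 2-sided, the smallest 4 against 4 allows, adjusted p = 0.143 over the gates). The ungated share of Ifng UMIs was 11.5% with and 5.17% without PancVAX, and the NK share 1.011% and 2.53%, each in groups that did not overlap (exact permutation p = 0.0286, adjusted p = 0.143). Without the Percoll PancVAX + Anti-PD-1 library, in which 46.4% of cells were gated, the vaccinated pools had means of 69.9% in CD8 T cells, 12.8% ungated and 0.929% in NK cells. CD8 T cells were 18.3% of passing cells with PancVAX and 14.4% without (exact permutation p = 0.0286, adjusted p = 0.109).

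**Figure D2:**
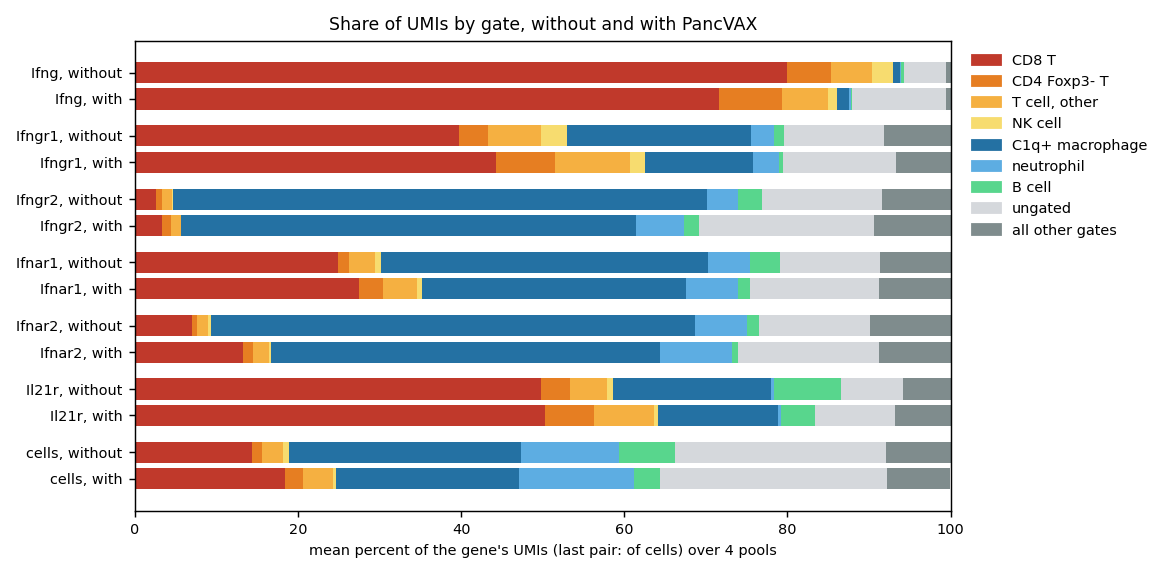
Mean percent of each gene's UMIs by gate over 4 pools, in pairs of bars without and with PancVAX, the last pair giving the percent of cells. CD8 T cells fill most of the Ifng bars (80.0% without and 71.6% with PancVAX) and C1q+ macrophages most of the Ifngr2 bars (65.5% and 55.8%).

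The share of cells with an Ifng UMI was compared after each cell was thinned to 1000 UMIs. It was 14.4% of 9473 CD8 T cells (95% Clopper-Pearson interval 13.7% to 15.1%), 12.4% of 362 NK cells (9.21% to 16.3%) and 9.86% of 1045 CD4 Foxp3- T cells (8.12% to 11.8%). It was 0.177% in C1q+ macrophages, 0.189% in neutrophils and 0.078% in B cells, gates that serve here as the background, and 0 of 491 dendritic cells, with an upper Clopper-Pearson bound of 0.749%; whether free RNA or doublets gave the background was not tested. The macrophage background was 0.277% in pools with PancVAX and 0.084% in pools without, which did not overlap (exact permutation p = 0.0286, adjusted p = 0.286). In gamma-delta T cells the draw gave 1 of 141 cells (0.709%), but the share expected over all draws was 3.70%, against 0.189% in C1q+ macrophages and 14.1% in CD8 T cells. Foxp3+ T cells had 0.86% (4 of 465) in the draw and an expected share of 0.666%. Before thinning, the share was 34.8% in CD8 T cells, 9.93% in gamma-delta T cells (5.54% to 16.1%), 1.94% in Foxp3+ T cells (0.889% to 3.64%) and 0.51% in C1q+ macrophages (0.399% to 0.641%), at median depths of 4002, 3930, 3135 and 4080 UMIs per cell. The gamma-delta share thus lay above that of macrophages of like depth. Intervals and limits cover counting error only. In CD8 T cells the thinned share was 15.6% ± 0.61 with PancVAX and 12.2% ± 2.95 without (n = 4 pools each), a difference of 3.41 percentage points that did not pass the test (exact permutation p = 0.114, adjusted p = 0.381); the unthinned shares were 35.0% and 34.4%, at median depths of 3573 and 4786 UMIs per cell.

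The factorial design allowed 4 pools with PancVAX to be compared with 4 without. Of 84 pairs of a gene and a gate, 63 passed the filter on low counts and 21 did not. The test called 3 of the 63, all higher with PancVAX, where a call needs an edgeR quasi-likelihood adjusted p below 0.05 and a log2 difference above 0.5; over all genes 1.66% of tests were called. The calls were Ifngr1 and Ifnar2 in CD8 T cells and Ifngr1 in CD4 Foxp3- T cells. The CD8 gate held most calls of any kind, with 11.2% of its 10839 genes called.

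Ifngr1 in CD8 T cells was at 731, 849, 857 and 861 CPM in PancVAX, PancVAX + Anti-PD-1, PancVAX + Anti-CTLA-4 and in PancVAX + Anti-PD-1 + Anti-CTLA-4. It was at 506, 556, 505 and 545 CPM in Isotype Control, Anti-PD-1, Anti-CTLA-4 and Anti-PD-1 + Anti-CTLA-4. The groups did not overlap, and the log2 difference was 0.57 (SE 0.055, edgeR adjusted p = 4.61e-05). It held within each preparation, with mean levels of 757 against 472 CPM in whole-tumor libraries and 891 against 574 CPM in Percoll libraries (exact permutation p = 0.0286 in each, 4 against 4). Leaving out each pool in turn gave 0.53 to 0.60, and without the Percoll PancVAX + Anti-PD-1 library it was 0.56 (edgeR adjusted p = 2.37e-05).

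Ifnar2 in CD8 T cells was at 80.7, 64.5, 85.2 and 72.5 CPM in the same 4 pools with PancVAX. Without PancVAX it was at 33.3, 46.0, 43.7 and 53.0 CPM in Isotype Control, Anti-PD-1, Anti-CTLA-4 and Anti-PD-1 + Anti-CTLA-4. The groups again did not overlap, with Isotype Control lowest (log2 difference 0.70, SE 0.13, edgeR adjusted p = 0.00263; 0.58 to 0.79 with each pool left out). Within preparations the mean levels were 77.3 against 42.2 CPM in whole tumor and 74.5 against 45.6 CPM in Percoll (exact permutation p = 0.0286 in each). Without the Percoll PancVAX + Anti-PD-1 library it was 0.71 (edgeR adjusted p = 0.00128). The other chains differed less in CD8 T cells, with log2 differences of 0.10 (SE 0.08) for Ifnar1, 0.13 (SE 0.18) for Ifngr2, 0.21 (SE 0.12) for Il21r and 0.26 (SE 0.14) for Ifng. Cells of the CD8 gate had a lower median depth with PancVAX (3573 against 4786 UMIs), and Lck and Skap1, T cell genes that no gate used, summed to 833 CPM (745 to 898) with PancVAX and 706 CPM (685 to 722) without; the part of either in these results was not tested.

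**Figure D3:**
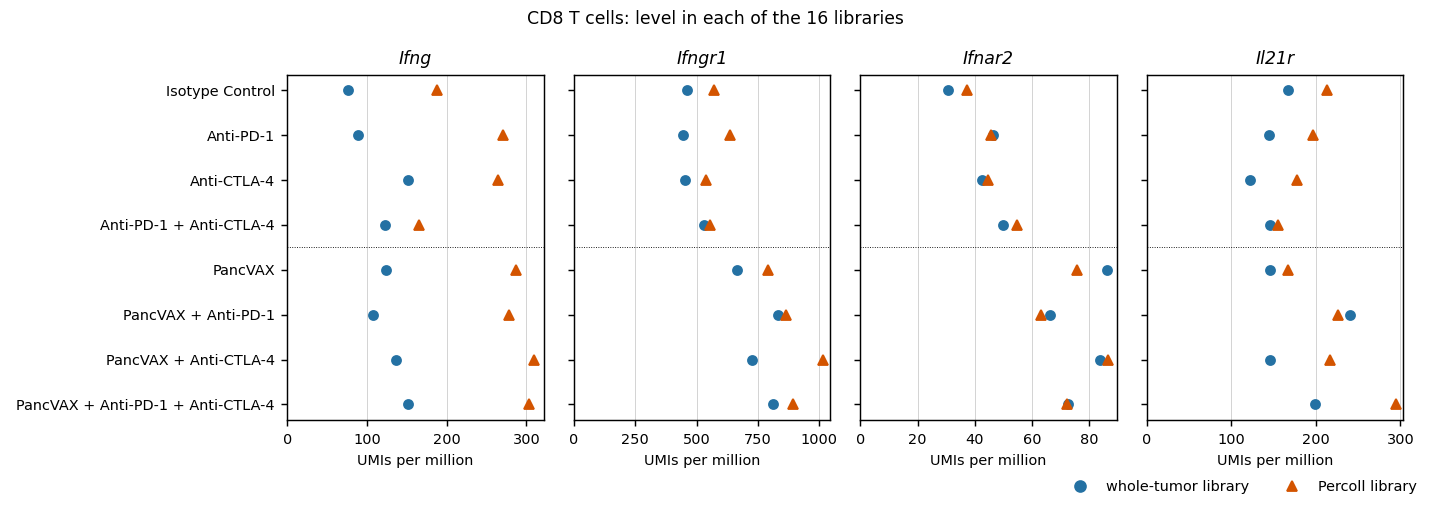
Level of Ifng, Ifngr1, Ifnar2 and Il21r in CD8 T cells of each of the 16 libraries, in CPM, with circles for whole-tumor and triangles for Percoll libraries and the 4 treatments with PancVAX below the dotted line. Within either preparation every PancVAX library lies above every other library for Ifngr1 and Ifnar2, and for Ifng the Percoll library exceeds the whole-tumor library in all 8 pairs.

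Ifngr1 in CD4 Foxp3- T cells was at 1141, 1190, 1159 and 1113 CPM in PancVAX, PancVAX + Anti-PD-1, PancVAX + Anti-CTLA-4 and in PancVAX + Anti-PD-1 + Anti-CTLA-4. In Isotype Control, Anti-PD-1, Anti-CTLA-4 and Anti-PD-1 + Anti-CTLA-4 it was at 726, 671, 676 and 1026 CPM. The groups did not overlap, though the pool given both antibodies lay near the PancVAX pools (log2 difference 0.56, SE 0.13, edgeR adjusted p = 0.0298). The call was lost when any pool but Anti-PD-1 + Anti-CTLA-4 was left out, at 0.49 to 0.64 and adjusted p of 0.0558 to 0.132, and within either preparation alone (0.59 in whole tumor and 0.54 in Percoll, edgeR adjusted p = 0.109 and 0.101) or with no upper limits on genes and UMIs (0.68, edgeR adjusted p = 0.312). Without the Percoll PancVAX + Anti-PD-1 library it stood, at 0.57 (edgeR adjusted p = 0.0317).

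In other gates no gene passed this test. With other processing, Ifngr1 in neutrophils (no upper limits on genes and UMIs) and Ifng in C1q+ macrophages (no filter on low counts) were called. Ifngr1 in NK cells was at 1300, 1595, 1751 and 1589 CPM in the 4 PancVAX pools, in the order above, and at 1204, 1015, 1161 and 1019 CPM in the 4 others. The groups did not overlap, but the log2 difference of 0.46 (SE 0.13) had an edgeR adjusted p of 0.281. By chance, groups of 4 pools fall apart in this way, in either direction, in a share of 0.0286 of splits. The share over all genes is not given here, so a lack of overlap only describes these pairs. Ifngr1 in dendritic cells likewise did not overlap (175 to 280 against 134 to 164 CPM; log2 difference 0.66, SE 0.20, edgeR adjusted p = 0.952), nor did Il21r in Foxp3+ T cells (218 to 316 against 81.7 to 193 CPM; 0.64, SE 0.20, edgeR adjusted p = 0.369). In C1q+ macrophages Ifngr1 was at 178 to 183 against 145 to 175 CPM, a log2 difference of 0.08 (SE 0.07). Its means there were 158.8 CPM with and 158.9 CPM without PancVAX in Percoll libraries, and 201 and 169 CPM in whole tumor. Il21r in C1q+ macrophages (38.3 to 47.0 against 31.2 to 37.4 CPM) and Ifngr1 in stromal cells (63.1 to 69.8 against 36.6 to 53.6 CPM) did not overlap either. Ifnar1 in plasmacytoid dendritic cells was lower in every PancVAX pool (207 to 285 against 300.5 to 387 CPM; -0.57, SE 0.22, edgeR adjusted p = 0.763), in pools of 10 to 21 cells. Ifng in C1q+ macrophages was at 1.19 to 6.95 CPM with PancVAX and 0.43 to 1.40 without (1.89, SE 0.59, edgeR adjusted p = 0.151). Single libraries carried much of this in some pools. In PancVAX, 18 of 19 UMIs lay in the Percoll library (5.92 CPM, with 0.27 CPM in whole tumor). In PancVAX + Anti-PD-1 + Anti-CTLA-4, 40 of 52 lay in whole tumor (10.5 CPM, with 3.26 CPM in Percoll). The summed Lck and Skap1 level in that gate was 10.3 CPM with and 3.99 CPM without PancVAX, and the part of T cell RNA in the Ifng level was not tested.

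The difference of a gate's PancVAX effect from that of CD8 T cells was itself tested for 78 pairs of gene and gate. None passed adjustment (smallest adjusted p = 0.223), and 10 had the smallest unadjusted exact permutation p, 0.0286. For Ifnar2 these were C1q+ macrophages, C1q- monocytes, CD4 Foxp3- T cells, endothelial cells, gamma-delta T cells, neutrophils and plasmacytoid dendritic cells, each with a smaller or negative effect (-0.60 to -1.27 on the log2 scale relative to CD8 T cells). For Ifngr1 they were C1q+ macrophages (-0.49) and neutrophils (-0.43), and for Ifnar1 plasmacytoid dendritic cells (-0.68). The 70 splits of pools allow no p below 0.0286. After adjustment over 78 tests, a pass would need many more tests at that p than the 10 found. The lack of a pass therefore does not show that the gates had the same PancVAX effect.

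The share of CD8 T cells with a Pdcd1 UMI was itself lower with PancVAX, at 48.2% (44.7% to 53.2% over pools) against 66.5% (63.7% to 71.5%), at the lower depth given above, so the classes do not hold the same cells in both groups, and the part of this in the class values was not tested. The classes are not among the gates counted in the PancVAX test above. Over all genes, PancVAX called 871 of 10095 in cells with and 811 of 9200 in cells without a Pdcd1 UMI. Splitting the gate left Ifngr1 called in both classes, at 0.54 (SE 0.07, edgeR adjusted p = 0.000209) with and 0.65 (SE 0.07, edgeR adjusted p = 6.71e-05) without Pdcd1. In the cells with Pdcd1 the first of these fell under the size limit without the Anti-PD-1 + Anti-CTLA-4 pool (0.50) or the PancVAX + Anti-CTLA-4 pool (0.48). Ifnar2 was called in cells with Pdcd1 (0.73, SE 0.13, edgeR adjusted p = 0.00275) and not in those without (0.42, SE 0.15, edgeR adjusted p = 0.0965), but the difference between the classes, 0.29 on the log2 scale, did not pass (exact permutation p = 0.171, adjusted p = 0.257). Ifng was called only in cells without a Pdcd1 UMI, at 198, 196, 201 and 200.1 CPM in the 4 PancVAX pools against 55.8, 93.9, 181 and 103 CPM in Isotype Control, Anti-PD-1, Anti-CTLA-4 and Anti-PD-1 + Anti-CTLA-4. The PancVAX pools lay within 6 CPM of each other and above the others (log2 difference 0.79, SE 0.19, edgeR adjusted p = 0.013). In whole-tumor libraries the levels were 95.8 to 136 CPM with and 38.7 to 83.9 CPM without PancVAX (0.75, edgeR adjusted p = 0.00832). In Percoll libraries they overlapped, at 257 to 288 CPM with and 89.7 to 258.5 CPM without, Anti-CTLA-4 being highest of the latter (0.86, edgeR adjusted p = 0.0124). In the pools the call was lost without the Anti-PD-1 + Anti-CTLA-4 pool (0.71, edgeR adjusted p = 0.063), with DESeq2 (0.84, adjusted p = 0.128) and with no upper limits (0.75, edgeR adjusted p = 0.0944). The difference between the classes did not pass (exact permutation p = 0.0571, adjusted p = 0.114). Il21r was called in neither class. Its PancVAX effect was larger by 0.41 with Pdcd1 (exact permutation p = 0.0286, adjusted p = 0.0857), and its level was higher there in 8 of 8 pools.

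Ifngr2 differed in opposite directions in these classes, at low levels, while in the whole gate its difference was 0.13 (SE 0.18). In cells with Pdcd1 it was at 5.24 to 7.38 CPM with PancVAX and 2.35 to 2.99 CPM without, from 120 UMIs in all (log2 difference 1.21, SE 0.27, edgeR adjusted p = 0.00996). In cells without Pdcd1 it was at 9.25 to 14.3 CPM with and 15.0 to 27.9 CPM without, from 244 UMIs (-0.87, SE 0.24, edgeR adjusted p = 0.0272). The difference between classes was 1.76 on the log2 scale (exact permutation p = 0.0286, adjusted p = 0.0857 over 6 genes). Both calls were lost with DESeq2 (adjusted p = 0.0929 and 0.103), and with no upper limits on genes and UMIs the values were 0.37 and -0.27. The first was also lost in whole-tumor libraries alone (1.30, edgeR adjusted p = 0.0753) and in Percoll libraries alone (1.14, edgeR adjusted p = 0.0888). The second was lost in Percoll libraries alone (-0.56, edgeR adjusted p = 0.378) and without the pool of Isotype Control (-0.76), Anti-PD-1 (-0.67), PancVAX (-0.81) or PancVAX + Anti-PD-1 (-0.63).

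**Figure D4:**
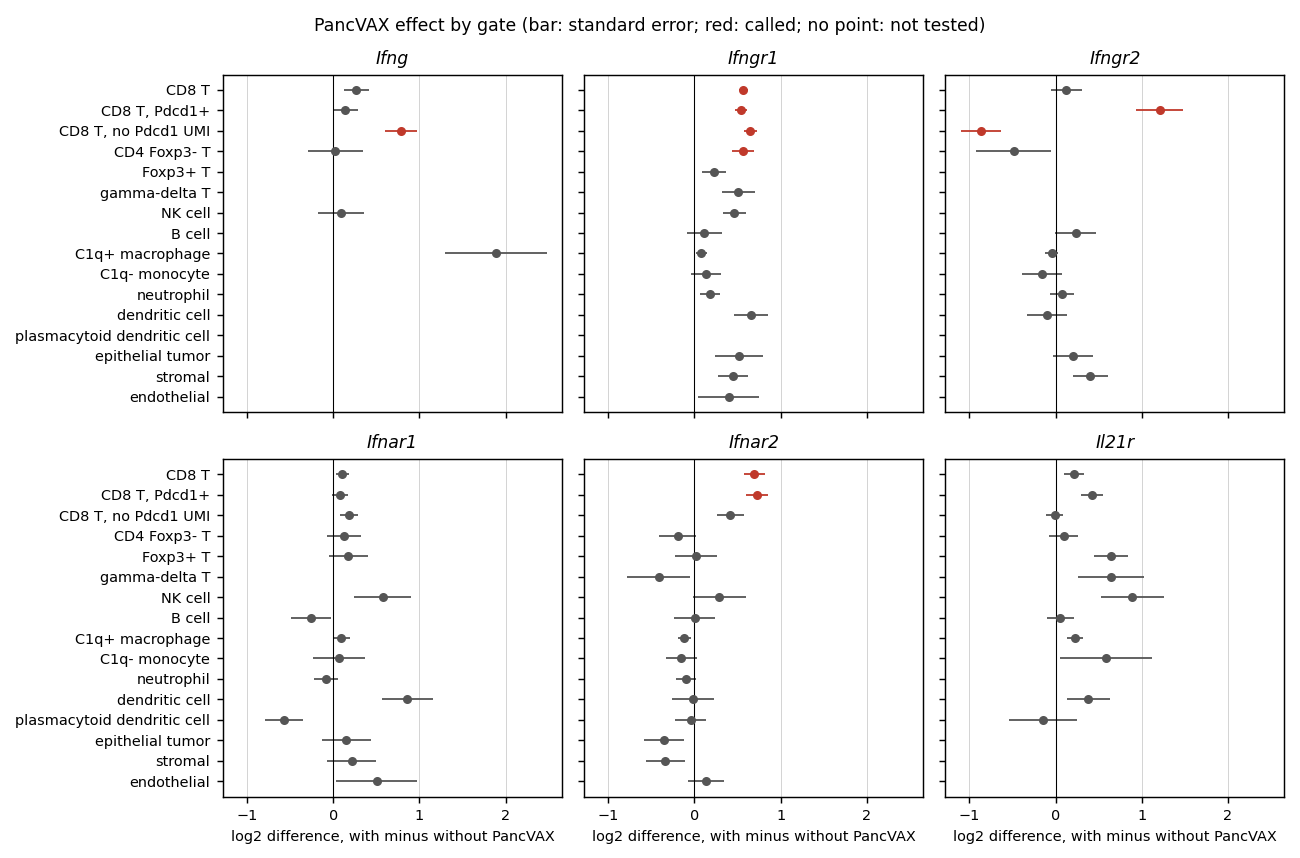
PancVAX effect on each gene by gate, as the log2 difference of 4 pools with minus 4 pools without PancVAX, with bars of 1 standard error, called effects in red, and no point where the low-count filter removed the gene. Ifngr1 lies to the right of 0 in the CD8 T gate, both its Pdcd1 classes and every other gate drawn, from 0.08 in C1q+ macrophages to 0.66 in dendritic cells. It is called in CD8 T cells, in both classes and in CD4 Foxp3- T cells. In plasmacytoid dendritic cells, where no point is drawn, its mean was 28.4 CPM with and 40.5 CPM without PancVAX, from 22 UMIs.

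Anti-PD-1 and anti-CTLA-4, each as 4 pools with against 4 without, called none of the same 63 pairs with edgeR or with DESeq2, against 0.162% and 0.0125% of all tests called. An unadjusted edgeR p below 0.05 was reached in 4581 of 80261 tests over all genes for anti-PD-1 and in 4033 for anti-CTLA-4. Among the 63 pairs there were 1 for anti-PD-1 and 3 for anti-CTLA-4, no larger a share. The former was Il21r in CD4 Foxp3- T cells (log2 difference 0.47, SE 0.16, edgeR adjusted p = 0.803). Among the latter was Ifng in CD4 Foxp3- T cells, at 408, 153, 148 and 414 CPM in Anti-CTLA-4, Anti-PD-1 + Anti-CTLA-4, PancVAX + Anti-CTLA-4 and in PancVAX + Anti-PD-1 + Anti-CTLA-4, and at 130, 119, 105.5 and 168 CPM in Isotype Control, Anti-PD-1, PancVAX and PancVAX + Anti-PD-1. A pair of pools stood high and the others overlapped (1.04, SE 0.31, edgeR adjusted p = 0.624). Single libraries differed widely within a pool, at 706 CPM in whole tumor and 229.6 CPM in Percoll of Anti-CTLA-4, and at 7.65 CPM (1 UMI) and 336 CPM (26 UMIs) of Isotype Control.

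PancVAX alone was then compared with Isotype Control, 2 libraries against 2, in a fit over all 16 libraries with the preparation as a block. Each arm is a single treatment group of pooled tumors in 2 preparations, so the test has no independent replicate pools and its p-values measure the spread between libraries. It called 2 of 53 pairs tested, both higher with PancVAX in CD8 T cells, against 1.19% over all genes and 7.01% in the CD8 gate. Ifnar2 was at 86.3 CPM (whole tumor) and 75.8 CPM (Percoll) with PancVAX and at 30.5 and 37.3 CPM in Isotype Control (log2 difference 1.23, SE 0.14, edgeR adjusted p = 6.22e-06; 1.10 to 1.36 with each library left out). Ifng was at 124 and 287 CPM with PancVAX and 75.9 and 188 CPM in Isotype Control (0.62, SE 0.18, edgeR adjusted p = 0.0323). Within each preparation PancVAX was higher, and the Percoll libraries of both treatments lay above the whole-tumor libraries. The Ifng call was lost with any of the 4 libraries left out (0.54 to 0.73, edgeR adjusted p of 0.0646 to 0.269) and with no preparation term (0.64, edgeR adjusted p = 0.706). In CD8 T cells without a Pdcd1 UMI the Ifng difference was 1.53 (SE 0.24, edgeR adjusted p = 0.000395), and 1.47 to 1.59 with each library left out, but it was not called with no preparation term (1.67, edgeR adjusted p = 0.334). Ifnar2 (0.80, edgeR adjusted p = 0.0367) and Ifngr1 (0.52, edgeR adjusted p = 0.0329) were also called in that class. Both calls were lost with any of the 4 libraries left out. In cells with Pdcd1 only Ifnar2 was called (1.36, edgeR adjusted p = 8.34e-05). Over all genes 305 of 8930 were called with and 328 of 8239 without Pdcd1. In the whole CD8 gate Ifngr1 passed the adjusted p but not the size (0.46, SE 0.10, edgeR adjusted p = 0.00351).

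The addition of both antibodies to PancVAX, tested in the same fit with the same limit, called 1 of 53 pairs, Il21r in CD8 T cells, against 0.425% over all genes. Il21r was at 198 CPM (whole tumor) and 295 CPM (Percoll) with PancVAX + Anti-PD-1 + Anti-CTLA-4 and at 146 and 167 CPM with PancVAX. The log2 difference was 0.65 (SE 0.13, edgeR adjusted p = 0.0245), and it was lost without the Percoll library of the combination (0.44, adjusted p = 0.398) or without either PancVAX library (0.71 and 0.58, adjusted p = 0.19 and 0.451). Ifngr1, Ifnar2 and Ifng had log2 differences of 0.22 (SE 0.09), -0.16 (SE 0.11) and 0.16 (SE 0.16) in the same cells. In CD8 T cells with a Pdcd1 UMI, Il21r was called as well (0.67, edgeR adjusted p = 0.0148), among 38 of 8930 genes. That call was lost without any of the same 3 libraries. This comparison shares its PancVAX libraries with the one before.

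Ifng in CD8 T cells was higher in Percoll than in whole-tumor libraries. Percoll against whole tumor, 8 pairs of libraries with the treatment as a block, called 3 of 53 pairs tested, against 3.86% over all genes; preparation was also the sequencing batch, and these cannot be told apart. Ifng in CD8 T cells was at 165, 274.5 and 310 CPM (lowest, median, highest) in Percoll libraries and at 75.9, 123 and 152 CPM in whole-tumor libraries. The groups did not overlap, and Percoll was higher in 8 of 8 pairs (log2 difference 1.10, SE 0.08, edgeR adjusted p = 7.82e-09; 1.04 to 1.18 with each pair left out). Ifng in NK cells was at 113.5, 163 and 337 CPM against 18.4, 94.5 and 140 CPM, higher in 8 of 8 pairs with overlapping groups (1.07, SE 0.30, edgeR adjusted p = 0.0366). That call was lost without the pair of Anti-PD-1 (1.11), Anti-PD-1 + Anti-CTLA-4 (1.04), PancVAX + Anti-PD-1 (0.95) or PancVAX + Anti-PD-1 + Anti-CTLA-4 (0.77), with edgeR adjusted p of 0.0617 to 0.106. It was also lost with DESeq2 (1.10, adjusted p = 0.164), with gates of at least 4 markers (1.02, edgeR adjusted p = 0.0787) and with no upper limits (1.32, edgeR adjusted p = 0.0576). Ifngr2 in CD8 T cells went the other way, at 4.93, 6.59 and 11.5 CPM in Percoll and 6.97, 11.5 and 14.2 CPM in whole tumor, lower in 7 of 8 pairs (-0.65, SE 0.18, edgeR adjusted p = 0.0129). It was not called with DESeq2 (-0.67, adjusted p = 0.0784) or, for its size, with no upper limits (-0.47, edgeR adjusted p = 0.0311).

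Other genes of these pathways were read from a list of 42: ligands, partner receptor chains, kinases, transcription factors, inhibitors, IFN-gamma targets and inducers of Ifng. The list was chosen with earlier results of these data known, so its called shares describe it and are no independent test. With PancVAX, 10 of the 29 tested in CD8 T cells were higher and 0 lower, with a median log2 difference of 0.33 (34.5% called, against 11.2% of all genes in that gate), and 11 of 288 tests over all gates were called (3.82%, against 1.66% over all genes). In CD8 T cells these were Irf1 (0.80, SE 0.07), a transcription factor induced by interferons, Stat2 (0.54, SE 0.13), a subunit of the type I interferon factor ISGF3, the feedback inhibitors Socs3 (1.23, SE 0.10) and Usp18 (1.60, SE 0.22), of which USP18 binds IFNAR2, and the targets Gbp2 (1.10, SE 0.11) and Cxcl10 (1.72, SE 0.19). The others act upstream of Ifng: Il12rb2 (0.60, SE 0.10), a chain of the IL-12 receptor, Il18r1 (0.90, SE 0.11) and Il18rap (0.70, SE 0.09), the chains of the IL-18 receptor, and Il18 itself (1.91, SE 0.44). Their edgeR adjusted p ran from 2.04e-05 for Socs3 to 0.013 for Stat2. The call outside CD8 T cells was Il18r1 in CD4 Foxp3- T cells (0.78, SE 0.18, edgeR adjusted p = 0.0321).

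Cxcl9, a CXCR3 ligand induced by IFN-gamma, was called for anti-PD-1 in C1q- monocytes (2.19, SE 0.35, edgeR adjusted p = 0.0171), 1 of 288 tests (0.347%, against 0.162% over all genes), and no listed gene was called for anti-CTLA-4 by edgeR. In epithelial tumor cells Cxcl9 was higher with PancVAX than with Isotype Control (3.10, SE 0.62, edgeR adjusted p = 0.0482) and lower with both antibodies added (-3.92, SE 0.58, edgeR adjusted p = 0.000369). Cxcl10 went the same ways in neutrophils (1.39, SE 0.22, and -1.20, SE 0.22; edgeR adjusted p = 0.00905 and 0.0145), again with shared PancVAX libraries. In all, PancVAX against Isotype Control called 13 of 239 tests (5.44%, against 1.19% over all genes), of which 9 were higher and 1 lower (Stat3, -0.51) in CD8 T cells (37.0% of those tested there, against 7.01% of all genes in the gate), and Gbp4, a guanylate-binding protein gene, was higher in neutrophils (1.83, SE 0.36). The addition of both antibodies called 4 of 239 (1.67%, against 0.425% over all genes), with Cxcl10 lower in epithelial tumor cells (-2.95, SE 0.62) and Irf1 higher in B cells (1.09, SE 0.21). Percoll against whole tumor called 18 of 239 (7.53%, against 3.86% over all genes), 15 higher and 3 lower. Socs3 was higher in Percoll libraries in CD8 T cells (1.00, SE 0.10), CD4 Foxp3- T cells (1.09, SE 0.19), NK cells (1.37, SE 0.23), B cells (1.68, SE 0.27) and C1q+ macrophages (0.58, SE 0.09), beside Irf1 in CD8 T, CD4 Foxp3- T and B cells (0.52, 0.72 and 2.07). The lower ones were Cxcl9 in CD8 T cells (-0.72, SE 0.18), Ciita, the activator of MHC class II genes, in B cells (-0.51, SE 0.14) and Usp18 in neutrophils (-0.63, SE 0.19). All of these moved with the same split as Ifng, and their part in it was not tested.

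Across the 112 values of 14 gates in 8 pools, the genes with the pattern most like each member were ranked among 8352 genes by Pearson's r of log2(CPM + 1), as a description, since gates of a pool share libraries and gates differ in depth. For Ifng they were Klrc1 (0.92), an NKG2 receptor gene, Fasl (0.92), the Fas ligand, and Gm2682 (0.89). For Ifngr1 they were Cish (0.92), a STAT5-induced inhibitor, Ptpn22 (0.88), a lymphoid phosphatase, and Prkch (0.88), a protein kinase C. Ifngr2 had weaker likeness, led by Gpx1 (0.72), a glutathione peroxidase, Ctsz (0.69), a cathepsin, and Lmo2 (0.66). For Ifnar1 they were Reep5 (0.79), Cyth4 (0.78) and St8sia4 (0.74), for Ifnar2 Csf2rb2 (0.81), Eepd1 (0.79) and Lifr (0.76), and for Il21r Gpr183 (0.92), an oxysterol receptor of migrating lymphocytes, Cd48 (0.90) and Dock10 (0.90). Between members r ran from 0.71 for Ifng and Ifngr1 to -0.64 for Ifng and Ifngr2.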

How the data were processed

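Single cells of Panc02 tumors were sequenced from the 5′ end in 16 RNA libraries, 8 treatments in 2 preparations; 8 T cell receptor samples were not used here. The authors deposited raw UMI counts of all 16 libraries as 1 matrix, which the barcodes divide into libraries, made with Cell Ranger 4.0.0 on mm10 per the submitters' processing notes, with no normalization. Barcodes with 200 to 3000 genes, 1000 to 10000 UMIs, under 10% mitochondrial UMIs and no hemoglobin UMI were kept. Doublets were not called beyond these upper limits. A cell entered a gate with at least 3 of a list's markers and at least 2 more than of any other of 12 lists (93 markers). Of the gated cells, 6958 lay near a limit. Counts were summed per gate and library, or per gate and pool (at least 10 cells).

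Pools were fitted with edgeR 4.0.16 (R 4.3.3, quasi-likelihood test, TMM) with 1 term for the vaccine and 1 for each antibody, and libraries on treatment with preparation as a block, since the study's methods tie each preparation to a sequencing batch. P-values were adjusted by Benjamini-Hochberg over all genes of a gate, and a call needed an adjusted p below 0.05 and a log2 difference above 0.5. Fits were tested on simulated counts. Permutation tests were exact and 2-sided, over 70 splits of pools or 256 sign flips (scipy 1.17.1). Tests of the order of gates and of differences between gates or Pdcd1 classes used log2(CPM + 1). Tests of shares of UMIs or cells used percents. DESeq2 1.42.0, other scalings, filters, marker minimums, single preparations and left-out pools were alternatives; leaving out the Percoll library of PancVAX + Anti-PD-1 was added after seeing the data. The genes named were the 6 members, genes of a pathway list that were called, the 3 genes most like each member (mean of at least 10 CPM), and genes that check the gates. Members and lists were chosen with earlier results of these data known. Promoter sequences are from RefSeq (GRCm38.p6), in which all 6 genes matched.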

Additional observations from a re-analysis of the deposited data

Results flagged for a closer look

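Among 134 groups of 4 pools, 6 held a pool far from the other 3; chance gives about 1 in 20 groups. Ifng in CD4 Foxp3- T cells without PancVAX was at 408 CPM in the Anti-CTLA-4 pool, with 706 CPM in the whole-tumor library (70 UMIs over 31 cells) and 229.6 CPM in the Percoll library. Ifngr1 in the same cells was at about 1030 CPM in the Anti-PD-1 + Anti-CTLA-4 pool. Ifngr1 in CD8 T cells was at 731 CPM in the PancVAX pool, the lowest of the 4 vaccinated pools. Ifnar1 in CD8 T cells without a Pdcd1 UMI was at 82.2 CPM in the Anti-CTLA-4 pool. Ifnar2 in dendritic cells was at 55.7 CPM in the Anti-PD-1 + Anti-CTLA-4 pool. Ifnar2 in neutrophils was at 176 CPM in the PancVAX + Anti-PD-1 + Anti-CTLA-4 pool.

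A pair of effects went opposite ways between cell groups. Ifngr2 was lower with PancVAX in every pool of CD8 T cells without a Pdcd1 UMI (-0.87 on the log2 scale) and higher in every pool of those with one; the difference was 1.76 (exact permutation p = 0.0286, adjusted p = 0.0857). Ifnar2 was lower in every PancVAX pool of gamma-delta T cells (-0.41), where it was not called, and higher in every PancVAX pool of CD8 T cells. The gamma-delta pools held 3 to 10 Ifnar2 UMIs with and 8 to 13 without PancVAX. The difference between these gates was -1.27 (exact permutation p = 0.0286, adjusted p = 0.223).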

How the results depend on the processing

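The counts below are calls among the 6 genes. With no filter on low counts, anti-CTLA-4 called 1 of 81 pairs (Ifng in CD4 Foxp3- T cells), beside 473 of 206752 tests over all genes. The addition of both antibodies to PancVAX then called 2 of 70, beside 755 of 183735. PancVAX against Isotype Control called 1 of 50 with gates of at least 4 markers, beside 692 of 58350 over all genes. The addition of both antibodies called 0 of 57 with no upper limits on genes and UMIs, beside 3049 of 98004 over all genes. Percoll against whole tumor called 1 of 53 with DESeq2 and 1 of 57 with no upper limits, beside 1616 of 65346 and 3094 of 98004 over all genes. With no upper limits, 20 neighbouring pairs of gates passed in the order of levels, against 0. With the limits, 11 pairs stood at the smallest exact sign-flip permutation p that 8 pools allow, with an adjusted p of 0.0554. A few more pairs at that p would let all of them pass together, so the step is no measure of change in the order. The PancVAX effect called 2 to 3 of 61 to 65 pairs with a pool left out, beside 1088 to 1715 of 77488 to 80214 tests over all genes. With no upper limits it called 3 of 67, beside 1166 of 114517 over all genes. Ifngr1 in neutrophils was then called and Ifngr1 in CD4 Foxp3- T cells was not. With no filter it called 4 of 81, beside 2607 of 206752, among them Ifng in C1q+ macrophages. No called difference changed sign. Differences in the Ifng-positive share that had not passed did, at -2.0 percentage points thinned and 6.06 unthinned in CD4 Foxp3- T cells, and -1.53 in all libraries and 2.84 in Percoll alone in NK cells. The cause of these changes was not tested.

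With no replicate block, that is without the preparation term that pairs the libraries, PancVAX against Isotype Control called 1 of 53 of the 6 genes' pairs. The addition of both antibodies then called 0 of 53. Over all genes these fits called 365 and 70 of 65346. Over all genes, the PancVAX effect went from 1330 calls to 2607 with no filter. Anti-CTLA-4 went from 10 to 18 with DESeq2, 5 with Percoll alone, 19 with whole tumor alone, 4 with at least 4 markers, 473 with no filter and 29 without the Percoll library of PancVAX + Anti-PD-1. Anti-PD-1 went from 130 to 23 with Percoll alone, 35 with at least 4 markers, 839 with no filter and 11 with no upper limits. PancVAX against Isotype Control went from 775 to 481 with DESeq2, 1357 with no filter, 365 without the block and 1924 with no upper limits. The addition of both antibodies went from 278 to 755 with no filter, 70 without the block and 3049 with no upper limits. Percoll against whole tumor went from 2523 to 1616 with DESeq2. With 1 pool left out, anti-PD-1 gave 24 (without Anti-PD-1 + Anti-CTLA-4) to 201 (without PancVAX + Anti-CTLA-4) and anti-CTLA-4 gave 8 (without PancVAX + Anti-PD-1 + Anti-CTLA-4) to 41 (without Isotype Control or without PancVAX). With 1 library left out, PancVAX against Isotype Control gave 374 to 580 and the addition of both antibodies 95 to 171, lowest without the Percoll PancVAX library in each. Gates of few cells limit the depth: gamma-delta T and plasmacytoid dendritic cells had pools of 10 cells, and Ifngr2 in NK cells rested on 3 UMIs.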
